A study of Drosophila melanogaster with 14 samples.

Results

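Histone acetyltransferases transfer acetyl groups from acetyl-CoA to lysines of histone tails, a mark of active enhancers and promoters that deacetylases such as HDAC1 remove. In Drosophila the acetyltransferase Gcn5 works in large assemblies, chiefly SAGA and ATAC, which share Gcn5 and the adaptor Ada3 but use different Ada2 proteins: Ada2b belongs to SAGA and Ada2a to ATAC. Nejire (nej), the fly CBP/p300, acetylates histone H3 at lysine 27 at enhancers, and Tip60, chameau (chm) and enoki mushroom (enok) are enzymes of the MYST family. The genes described here are the 9 rows of the count table named nej, Gcn5, Ada2a, Ada2b, Ada3, Tip60, chm, enok and ear, of 17868 genes in all, chosen by symbol. The member ear encodes a YEATS-domain protein related to ENL and AF9, which binds acylated histones and belongs to the super elongation complex. It is neither an acetyltransferase nor an Ada adaptor. The row CBP, a calcium-binding protein gene, is no member.

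The 14 libraries come from polyadenylated RNA of type II NSCs of the Drosophila melanogaster larval brain, neuroblasts that bud off intermediate neural progenitors. They form 3 experiments, each with controls of its own whose genotype is given as WT. GAF RNAi has 3 libraries and 3 controls, and HDAC1 RNAi and Osa overexpression have 2 and 2 each. GAF, encoded by Trl, binds GA repeats at promoters, and Osa belongs to a SWI/SNF remodeller, the BAP complex. The design text of the series names a knockdown of Osa where the sample labels name an overexpression. The driver, RNAi line, larval age and animals per library are not stated in the labels. Whether replicates were separate animals is not stated either, so a p-value measures the scatter among libraries, which may be technical. Total counts per library ranged from 31788351 to 51505597.

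The targeted genes and the markers bear on every result below. Osa RNA went from 146 and 149.6 CPM (counts scaled to library size and by TMM factors within an experiment) in controls to 299 and 288 CPM in overexpression. HDAC1 RNA stood at 70.9 and 79.2 CPM in controls, 59.7 CPM in the library labelled HDAC1 RNAi replicate 1 and 34.7 CPM in replicate 2, and the difference did not pass (log2 fold change −0.67 ± 0.39 SE, edgeR adjusted p = 0.576). In the GAF experiment Trl stood at 5.5 ± 0.794 CPM (SD, n = 3) in controls and 5.21 ± 0.742 CPM in the libraries labelled GAF RNAi (−0.08 ± 0.25, edgeR adjusted p = 0.843). Trl shares 77.8% of its exonic bases with CG42507 and Tsen34 on the same strand, and how such reads were counted is not stated, so this low count is a weak check of the labels. The 2 HDAC1 RNAi libraries differed from each other more than other replicates did: their correlation of log2(CPM + 1) was 0.954, against 0.986 to 0.993 for every other pair of replicates. Every stem cell marker of the list (dpn, pnt, btd, wor, klu, mira) was detected in all 3 experiments, and so were markers of progenitors, neurons and glia.

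In the controls all 9 genes were expressed. To compare genes, counts were divided by exon length. That length includes stretches shared with other genes: 29.5% of Ada2a, 28.8% of Ada2b and 21% of Tip60. How reads there were counted is not stated, so the ranks of these genes, and which gene leads, may depend on it. Chm, a MYST acetyltransferase, stood highest in the GAF controls at 12.4 ± 2.19 CPM per kb (SD, n = 3) and in the HDAC1 controls at 10.6 ± 1.14 CPM per kb (n = 2). In the Osa controls Gcn5 led at 16.2 ± 1.17 CPM per kb (n = 2), and its libraries overlapped those of Ada2b (16 ± 0.717 CPM per kb). Enok, whose fly mutants have defects in neuroblasts of the mushroom body, was lowest in the GAF and Osa controls at 2.59 ± 0.355 and 5.13 ± 0.123 CPM per kb, and Ada2a was lowest in the HDAC1 controls at 1.31 ± 0.49 CPM per kb.

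The order of the GAF controls was chm, Ada2b, Tip60, Gcn5, nej, Ada3, Ada2a, ear and enok, and the 1 step at which neighbours did not overlap was from nej (8.06 ± 1.37 CPM per kb) to Ada3 (4.57 ± 0.853 CPM per kb). In the HDAC1 controls the order was chm, Gcn5, Tip60, Ada3, nej, Ada2b, ear, enok and Ada2a. Here Gcn5 overlapped Tip60, Tip60 overlapped Ada3 and nej overlapped Ada2b, while the other neighbours were apart. In the Osa controls the order was Gcn5, Ada2b, Tip60, chm, Ada3, nej, ear, Ada2a and enok. Gcn5 overlapped Ada2b, Ada2b overlapped Tip60, Ada3 overlapped nej, and ear overlapped Ada2a. The SAGA adaptor Ada2b had more counts than the ATAC adaptor Ada2a in every library, by 1.59 to 5.01 times.

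**Figure D1:**
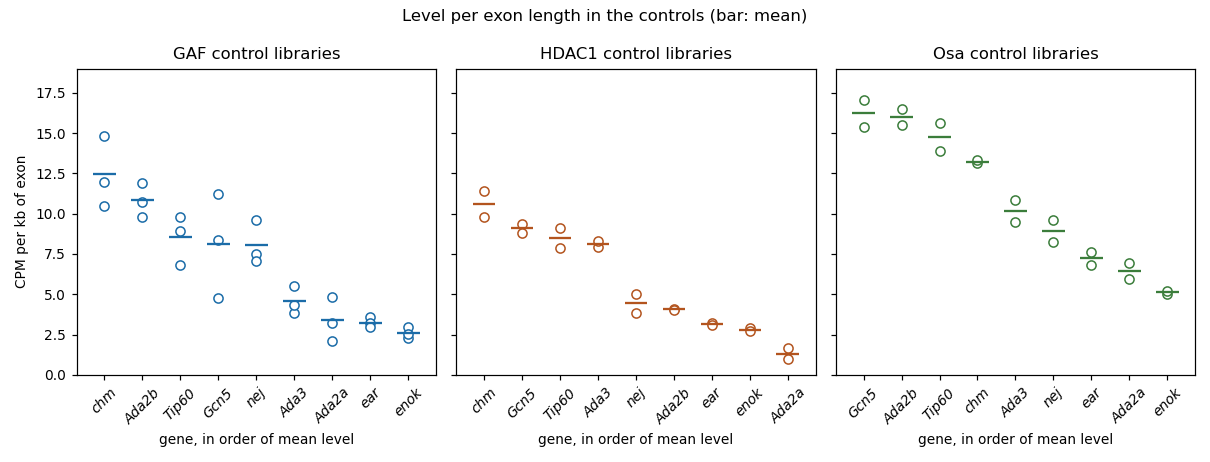
Level of the 9 genes in control libraries, in CPM per kb of exon (y axis), 1 panel per experiment, with genes ordered by mean level on the x axis. Circles are libraries and bars are means. Chm leads in the GAF and HDAC1 controls and Gcn5 in the Osa controls, and enok or Ada2a is lowest. Exon length includes stretches shared with other genes, largest as a share for Ada2a, Ada2b and Tip60.

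On the dm6 assembly the genes lie on 5 chromosome arms. Nej spans 9665442 to 9687066 on X (minus strand) with 15932 exonic bases, more than any other member. Gcn5 spans 12521129 to 12524014 on 3L (minus strand), Ada3 spans 18085761 to 18088418 on X (plus strand), and ear spans 15320756 to 15325279 on 3R (plus strand). Chm lies on 2L from 7412417 to 7422736 and enok on 2R from 24099210 to 24107032, both on the plus strand. Nej, chm, enok and ear share no exonic base with another gene.

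Gcn5 and Ada3 share 1.01% and 1.99% of theirs with a gene on the other strand, and for the remaining 3 members a larger part of the exonic sequence is shared. For Ada2a (3R, 18252843 to 18255487, minus strand), 29.5% of exonic sequence is shared with Polr2D, which encodes an RNA polymerase II subunit, starts and ends at the same bases and has all of its 722 exonic bases inside Ada2a. That gene, listed under its older name Rpb4, had 0 counts in every library. For Ada2b (3R, 8236632 to 8240515, minus strand), 28.8% of exonic sequence is shared with DNApol-iota on the other strand. For Tip60 (X, 4114800 to 4117487, minus strand) the share is 21%, with tyf and dgt4 on the other strand. Transposase-made libraries like these carry no strand, and the reads of such overlaps cannot be told apart.

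**Figure D2:**
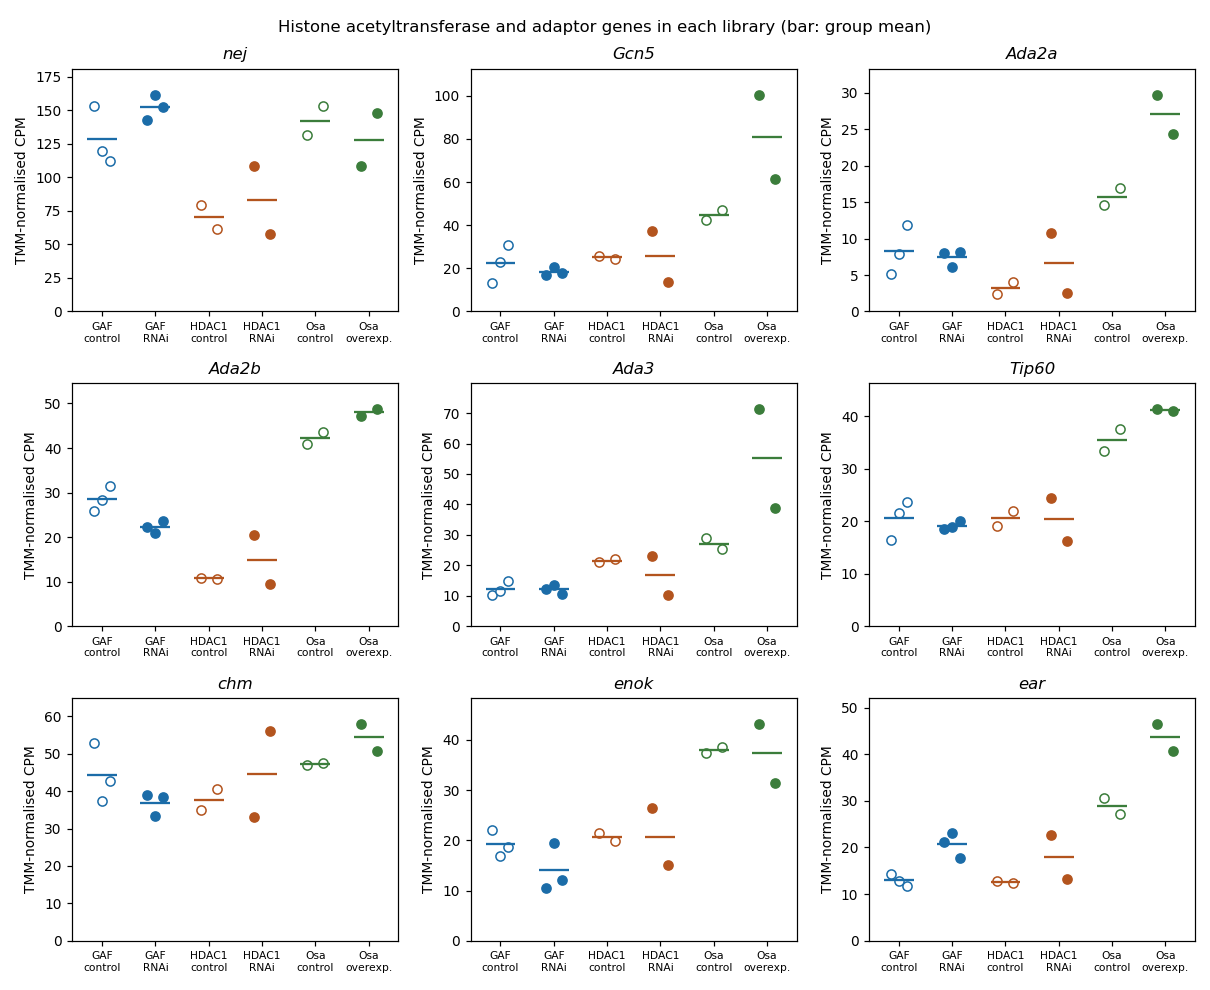
TMM-normalised CPM (y axis, linear from 0) of each of the 9 genes in the 14 libraries, by group on the x axis; open circles are controls, filled circles are RNAi or overexpression, bars are group means. Gcn5, Ada2a, Ada3 and ear are above their controls in both Osa overexpression libraries, and ear is above its controls in all 3 GAF RNAi libraries.

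Osa overexpression gave the most calls among these genes, 4 against 1 in GAF RNAi and 0 in HDAC1 RNAi. Gcn5, its adaptor Ada3, the ATAC adaptor Ada2a and ear rose, by 1.51 to 2.04 times, while the SAGA adaptor Ada2b, the MYST enzymes Tip60, chm and enok and the CBP gene nej did not pass the test. Thus 4 of 9 members were called higher (44.4%) and 0 lower, where 8.86% of the 9156 genes tested were called higher and 12.2% lower. The median log2 fold change was 0.21 over the members and 0.05 over all genes tested. The experiments differed in how readily any gene was called: 21.1% of all genes tested in Osa overexpression, 28.4% in GAF RNAi and 0.0971% in HDAC1 RNAi. More calls therefore do not show a larger response, and no member passed in the contrasts between experiments with every library.

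Gcn5, the catalytic subunit, held 42.6 and 47.2 CPM in the controls and 101 and 61.3 CPM in overexpression replicates 1 and 2. Both overexpression libraries were above both controls, replicate 1 far more than replicate 2. The log2 fold change was 0.85 ± 0.23 (SE, edgeR adjusted p = 0.032). Ada3, the adaptor shared by SAGA and ATAC, had the same shape, with 28.8 and 25.2 CPM in controls and 71.3 and 39 CPM in overexpression. Its log2 fold change was 1.03 ± 0.27 (edgeR adjusted p = 0.0302).

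Ada2a, the ATAC adaptor, went from 14.6 and 16.9 CPM to 29.8 and 24.4 CPM. The groups did not overlap, and the log2 fold change was 0.78 ± 0.22 (edgeR adjusted p = 0.0352). Ada2b, the SAGA adaptor, had 40.8 and 43.5 CPM in controls and 47.3 and 48.7 CPM in overexpression. These groups did not overlap either, but the difference was small and did not pass (0.19, 95% interval −0.17 to 0.55, edgeR adjusted p = 0.441).

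The balance of the Ada2 adaptors was also measured within each library as the log2 ratio of Ada2b to Ada2a counts, which needs no scaling between libraries. It was 1.49 and 1.36 in the Osa controls and 0.67 and 1.00 in overexpression, lower in 2 of 2 libraries. The difference of the means was −0.59 (n = 2 and 2, two-sided exact permutation p = 0.333, the smallest p this design allows). In GAF RNAi the mean ratio differed by −0.27 (n = 3 and 3, exact permutation p = 0.6, where 0.1 is the smallest possible) and in HDAC1 RNAi by −0.40 (n = 2 and 2, exact permutation p = 0.667), with overlapping libraries in both. The ratio and the Ada2a fold change depend on how reads of shared exons were counted, 29.5% of Ada2a with Polr2D and 28.8% of Ada2b with DNApol-iota. The part of these neighbours was not tested.

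Ear, the YEATS-domain gene, went from 30.5 and 27.2 CPM to 46.5 and 40.8 CPM in Osa overexpression, again without overlap (log2 fold change 0.60 ± 0.18, edgeR adjusted p = 0.0401). Tip60, the acetyltransferase of the complex of the same name, had 33.5 and 37.6 CPM in controls and 41.4 and 41.1 CPM in overexpression (0.21, 95% interval −0.17 to 0.59, edgeR adjusted p = 0.397). Chm had 46.9 and 47.5 CPM and then 58 and 50.7 CPM (0.20, 95% interval −0.16 to 0.57, edgeR adjusted p = 0.398). Tip60 and chm libraries did not overlap between the groups, though neither gene passed.

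Nej had 132 and 153 CPM in the Osa controls and 108 and 148 CPM in overexpression, so its libraries overlapped (−0.15, 95% interval −0.55 to 0.24, edgeR adjusted p = 0.573). Enok had 37.4 and 38.7 CPM and then 43.2 and 31.4 CPM, 1 library on either side of its controls (−0.03, 95% interval −0.46 to 0.41, edgeR adjusted p = 0.941). In all, 7 of 9 members were higher without overlap (77.8% not overlapping in either direction). Over all genes tested 65.8% did not overlap (33.7% higher and 32.1% lower), so that with 2 libraries a group separation alone was common.

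The Osa calls rest on few libraries. Leaving out any of them leaves a group of 1, which is then assumed to vary like the other group. The calls of the 4 genes were lost without control replicate 1, control replicate 2 or overexpression replicate 1. They held without overexpression replicate 2, where many more genes over the whole table were called too. Without overexpression replicate 1 the log2 fold changes of Gcn5 and Ada3 were 0.45 and 0.53. Without overexpression replicate 2 they were 1.14 and 1.38, and that of nej was −0.41. In a fit of all 14 libraries none of the 4 passed (edgeR adjusted p from 0.157 to 0.46). That fit takes the spread of a gene from all groups, with the 2 unlike HDAC1 RNAi libraries among them. For Osa overexpression it called 354 of 11181 genes tested, against 1929 of 9156, so the loss was not particular to these 4 genes. Limma-voom called Gcn5 and Ada2a but neither Ada3 (limma adjusted p = 0.0511) nor ear (0.0525). With the replicate number as a block Ada2a was lost (edgeR adjusted p = 0.0524). Scaling by library size alone moved the median of all genes from 0.05 to 0.32 and turned the calls over all genes from 811 higher and 1118 lower into 1963 and 538. The 4 genes passed under that scaling too, at log2 fold changes of 0.87 to 1.31.

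**Figure D3:**
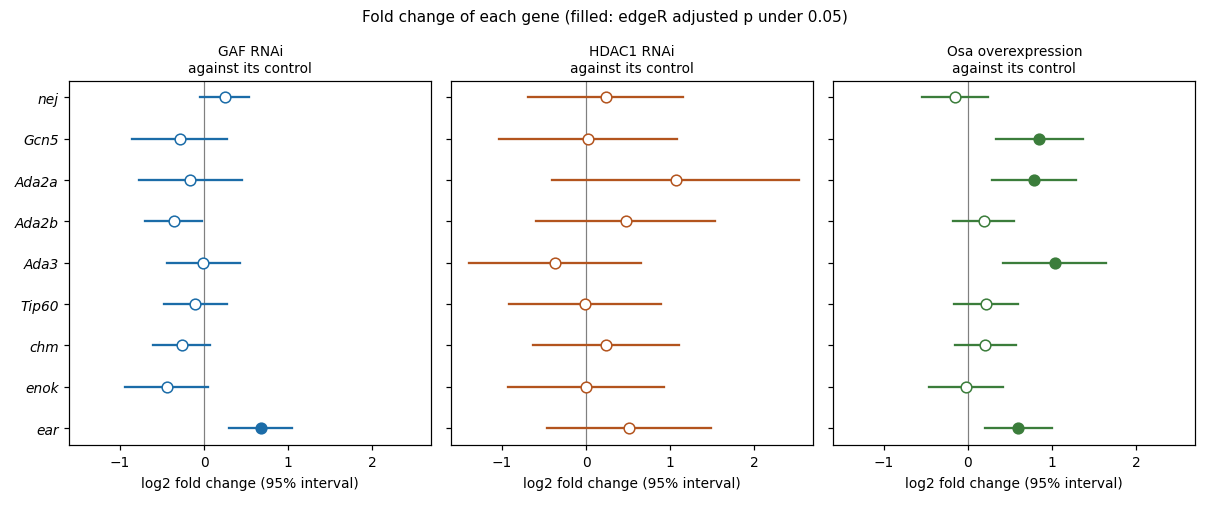
Log2 fold change (x axis) of each gene (y axis) against the controls of its own experiment, with 95% intervals from edgeR; filled circles passed the threshold. The 4 filled circles of Osa overexpression are Gcn5, Ada2a, Ada3 and ear, the 1 of GAF RNAi is ear, and the intervals of HDAC1 RNAi all include 0.

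GAF RNAi changed the RNA of 1 of these 9 genes past the threshold. Ear rose from 14.3, 12.7 and 11.8 CPM in the controls to 21.1, 23.1 and 17.7 CPM, higher in 3 of 3 libraries and without overlap. The log2 fold change was 0.67 ± 0.18 (SE, n = 3 and 3, edgeR adjusted p = 0.0124). Over all 9055 genes tested 28.4% were called, 12.5% higher and 15.9% lower, so 1 called member of 9 (11.1%) lay below that share. The median log2 fold change of the members was −0.16, against 0.0022 over all genes tested. Ear and Ada2b were the 2 of 9 members (22.2%) whose groups did not overlap, and 44.2% of all genes tested did not overlap.

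The other 8 genes did not pass in GAF RNAi. Nej had 153, 119.5 and 112 CPM in the controls and 143, 162 and 152 CPM in RNAi. Control replicate 1 lay within the RNAi range, and the log2 fold change was 0.24 (95% interval −0.05 to 0.54, edgeR adjusted p = 0.198). Ada2b, in SAGA, was lower in every RNAi library, with 25.9, 28.2 and 31.4 CPM in controls and 22.2, 20.8 and 23.5 CPM in RNAi, but its fold change did not pass after adjustment (−0.36, 95% interval −0.70 to −0.03, edgeR adjusted p = 0.0983). DNApol-iota, the polymerase gene that shares exons with Ada2b on the other strand, fell from 31.5 ± 8.85 to 17 ± 2.99 CPM in the same libraries (−0.89 ± 0.22, edgeR adjusted p = 0.00891). Its part in the Ada2b counts was not tested.

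For 7 of the 9 members, all but enok and ear, the SD was larger among the GAF controls than among the RNAi libraries. Gcn5 held 13.3, 23.1 and 31 CPM in controls and 16.9, 20.7 and 17.7 CPM in RNAi, which all lay inside the control range (−0.29, 95% interval −0.85 to 0.27). Ada2a ran from 5.16 to 11.8 CPM in controls and from 6.04 to 8.16 CPM in RNAi (−0.16, 95% interval −0.78 to 0.45). Ada3 ran from 10.3 to 14.7 CPM and from 10.6 to 13.4 CPM (−0.01, 95% interval −0.44 to 0.42). Control replicate 1 was the lowest control for Gcn5, Ada2a, Ada2b, Ada3 and Tip60 and the highest for nej, chm, enok and ear.

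Among the MYST enzymes in GAF RNAi, Tip60 was at 16.4 to 23.7 CPM in controls and 18.6 to 20.1 CPM in RNAi (−0.10, 95% interval −0.48 to 0.28). Chm had 52.9, 37.4 and 42.8 CPM and then 38.9, 33.3 and 38.5 CPM (−0.27, 95% interval −0.61 to 0.08). Enok had 22, 16.8 and 18.7 CPM and then 10.5, 19.5 and 12.2 CPM, so 2 RNAi libraries lay below every control and 1 within their range (−0.45, 95% interval −0.94 to 0.05, edgeR adjusted p = 0.162).

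The number of GAF calls depended on the libraries. Without control replicate 1, which held the highest nej and the lowest Gcn5, 4 members passed: ear (0.73, edgeR adjusted p = 0.0077), nej (0.37, 0.0156), Gcn5 (−0.58, 0.0215) and Ada2b (−0.45, 0.0302). That fit called 3389 of 9464 genes tested, against 2573 of 9055 with every library. Ear lost its call without control replicate 2 (edgeR adjusted p = 0.0563), control replicate 3 (0.053), RNAi replicate 1 (0.0545) or RNAi replicate 2 (0.0631), with log2 fold changes of 0.58 to 0.65. Its call was also lost in a fit of all 14 libraries (edgeR adjusted p = 0.0901), which called 1451 of 11181 genes for GAF RNAi. Enok passed without RNAi replicate 2 (−0.76, edgeR adjusted p = 0.028). Over all its alternatives the adjusted p of ear ran from 0.00172 (DESeq2) to 0.0901.

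HDAC1 RNAi gave no call among the 9 genes in edgeR, DESeq2 or limma-voom. At an unadjusted p under 0.05, 0 members were found where 11.9% of the 10299 genes tested were, while edgeR called 0.0971% of all genes and DESeq2 2.85%. The intervals were wide, and the 2 RNAi libraries often lay on opposite sides of the controls. Ada2a had 2.36 and 4.05 CPM in controls, 10.8 CPM in RNAi replicate 1 and 2.57 CPM in replicate 2 (1.07, 95% interval −0.40 to 2.54, edgeR adjusted p = 0.61). Gcn5 had 25.9 and 24.4 CPM in controls, then 37.5 and 13.7 CPM, above both controls in one library and below both in the other (0.02, 95% interval −1.04 to 1.08).

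The same split of the HDAC1 RNAi libraries was seen for most members. Replicate 1 was above both controls for nej (109 against 79.6 and 61.6 CPM), Ada2b (20.4 against 10.9 and 10.7 CPM), Ada3 (23.1 against 21.1 and 22 CPM), Tip60 (24.5 against 19 and 22 CPM), enok (26.4 against 21.4 and 20 CPM) and ear (22.6 against 12.8 and 12.3 CPM). Replicate 2 was below both controls for nej (57.4 CPM), Ada2b (9.45 CPM), Ada3 (10.3 CPM), Tip60 (16.3 CPM) and enok (15 CPM). Chm went the other way, with 34.9 and 40.6 CPM in controls, 33 CPM in replicate 1 and 56.1 CPM in replicate 2. Ear was the 1 member with both RNAi libraries above both controls (13.2 CPM in replicate 2), a log2 fold change of 0.51 with a 95% interval of −0.46 to 1.49 (edgeR adjusted p = 0.743). Over all genes tested 43.1% did not overlap between these groups.

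Relative to the mean of its own controls, on a log2(CPM + 1) scale, HDAC1 RNAi replicate 1 was higher for 8 of 9 members (median 0.56) and replicate 2 lower for 7 of 9 (median −0.28). Leaving out either RNAi library leaves a group of 1, which is then assumed to vary like the controls. Without replicate 2 the largest log2 fold changes upward were those of Ada2a (1.76), Ada2b (0.93), ear (0.86) and nej (0.63). Without replicate 1, which held more HDAC1 RNA, the largest downward were those of Ada3 (−1.04) and Gcn5 (−0.86). In these fits many more genes over the whole table were called than the 10 with all 4 libraries, so a call of a member in them says little.

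**Figure D4:**
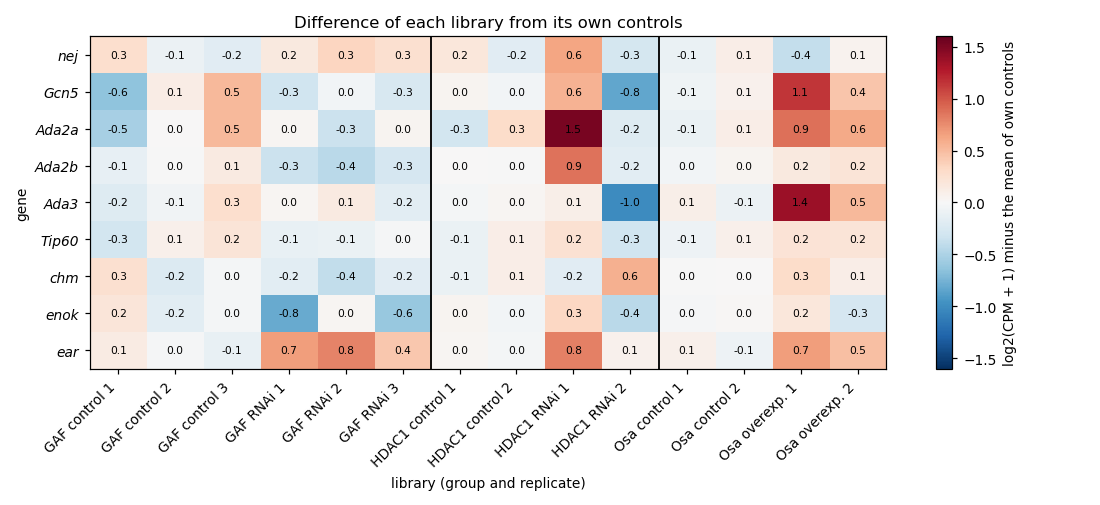
Difference of each library from the mean of its own controls in log2(CPM + 1) (colour and printed value), with genes as rows and libraries as columns. Ear is positive in every RNAi and overexpression library, and the HDAC1 RNAi libraries differ in sign for each of the other 8 genes.

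The responses were compared between experiments, which share no library, as contrasts in 1 fit of the 6 groups. No member passed in edgeR. The response of Gcn5 to GAF RNAi minus that to Osa overexpression was −1.15 ± 0.58 (95% interval −2.38 to 0.08, edgeR adjusted p = 0.25), and that of Ada3 was −1.05 ± 0.49 (−2.10 to 0.01, edgeR adjusted p = 0.225). For ear the same difference was 0.06 (95% interval −0.75 to 0.87), and between GAF RNAi and HDAC1 RNAi it was −0.002 (95% interval −0.80 to 0.80). At an unadjusted p under 0.05 stood Ada2b for GAF RNAi minus HDAC1 RNAi (−1.01 ± 0.41, edgeR adjusted p = 0.215) and Ada3 for HDAC1 RNAi minus Osa overexpression (−1.23 ± 0.54, edgeR adjusted p = 0.585). Leaving out an HDAC1 RNAi library leaves 1 in that group, whose spread is then taken from the other groups. The members that passed did so only in fits of this kind, in which many more genes over the whole table also passed. Without replicate 1 the HDAC1 minus Osa difference of Ada3 was −2.09. Without replicate 2 the GAF minus HDAC1 differences of Ada2a and Ada2b were −2.18 and −1.54. With every library in the fit, the contrasts between experiments called 2.87% (GAF minus Osa), 3.2% (GAF minus HDAC1) and 0.00894% (HDAC1 minus Osa) of the 11181 genes tested.

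Ear was the 1 member called in more than 1 experiment. Of 8482 genes tested in both the GAF and the Osa experiment, 134 were called higher in both, which is 1.58% of them, 13% of the genes higher in GAF RNAi and 17.3% of those higher in Osa overexpression.

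Markers of more differentiated cells were called higher in GAF RNAi and Osa overexpression, by the counts given here. In HDAC1 RNAi none of the marker lists given here had a member called in edgeR. At an unadjusted edgeR p under 0.05 stood 6 of 7 intermediate progenitor, 3 of 5 early neuron and 8 of 8 mature neuron markers. So did 3 of 6 stem cell markers (list median log2 fold change −1.06), 1 of 7 glia markers and the 1 fat body marker tested. Of the blood cell and muscle markers 0 did, and 11.9% of all genes tested did. The summed level of 7 intermediate progenitor markers was 61.2 to 96.7 CPM in GAF controls and 167 to 214 CPM in GAF RNAi, with 7 of 7 called higher. It was 276 to 317 CPM in Osa controls, and 797 to 1079 CPM in Osa overexpression with 6 of 7 higher. Overexpression replicate 1, the library with the most Gcn5 and Ada3, had the 1079 CPM. In the HDAC1 experiment the sum was 92.8 and 150.0 CPM in controls, 495 CPM in RNAi replicate 1 and 193 CPM in replicate 2.

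Early neuron markers summed to 135 to 273 CPM in GAF controls and 486 to 894 CPM in RNAi (5 of 5 higher), to 348 and 466 CPM in Osa controls and 915 and 787 CPM in overexpression (4 of 5 higher), and to 692 and 747 CPM in HDAC1 controls and 2428 and 1798 CPM in RNAi. Mature neuron markers were higher for 5 of 8 in GAF RNAi (18.5 to 28.5 CPM, then 66.4 to 125 CPM) and 2 of 8 in Osa overexpression (1048 and 738 CPM, then 1317 and 1152 CPM), and they summed to 235 and 177 CPM in HDAC1 controls and 675 and 423 CPM in RNAi. The 7 glia markers summed to 600.0 to 701 CPM in GAF controls and 148 to 173 CPM in RNAi. The fall of that sum was in nrv2 (597.9 ± 53 to 45.9 ± 3.36 CPM), while Eaat1 (27.6 ± 8.67 to 98.8 ± 14.4 CPM), wrapper and repo rose, and the median log2 fold change of the list was 1.15. Glia markers summed to 567 and 443 CPM in Osa controls and 617 and 684 CPM in overexpression (1 higher), and to 316 and 218 CPM in HDAC1 controls and 519 and 184 CPM in RNAi. Stem cell markers summed to 1310.2 and 1436 CPM in Osa controls and 951 and 939.7 CPM in overexpression (1 higher, 2 lower), to 1065 and 1039.6 CPM in HDAC1 controls and 311 and 438 CPM in RNAi, and to 1023 to 1133 and 992 to 1074 CPM in the GAF groups (2 of 6 lower). Of 3 fat body markers 1 was tested, Lsp1gamma, which rose in GAF RNAi (15.3 ± 4.26 to 28.2 ± 3.07 CPM) and fell in Osa overexpression (10.7 ± 1.85 to 3.73 ± 0.836 CPM), and the fat body sum was 13.4 and 17.4 CPM in HDAC1 controls and 2.04 and 6.02 CPM in RNAi. The 4 blood cell markers summed to 0.209 to 17.5 CPM over all libraries and the 4 muscle markers to 0.784 to 13.3 CPM. Called higher were 1 of 1 blood cell markers tested in GAF RNAi (Col4a1, mean 0.477 to 1.99 CPM) and 1 of 3 in Osa overexpression (He, 0 to 0.948 CPM). Of the muscle markers, 1 of 1 tested was called higher in GAF RNAi (bt, 0.83 to 2.73 CPM). All 3 levels are low. No marker of these lists was at 0 in every library of an experiment. In bulk libraries more cells of a type and more RNA per cell cannot be told apart, and the part of such cells in the rise of ear, Gcn5, Ada2a and Ada3 was not tested.

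The known partners of these genes, other acetylation enzymes and the genes of acetyl-CoA supply were examined as 8 lists. Of 67 related genes tested in GAF RNAi, 7 were higher and 12 lower (28.4%, the same share as over all genes), and of 67 in Osa overexpression 4 were higher and 3 lower (10.4%, against 21.1% over all genes). In HDAC1 RNAi 0 of 68 passed in edgeR, DESeq2 or limma-voom, with 1 at an unadjusted p under 0.05. By direction, 12.5% of all genes tested were called higher and 15.9% lower in GAF RNAi. In Osa overexpression these shares were 8.86% and 12.2%.

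SAGA partners were called in both directions. In Osa overexpression, Sgf29, the histone-reading subunit that sits with Gcn5, Ada2 and Ada3, fell from 57.7 ± 5.54 to 38.1 ± 0.691 CPM (n = 2 and 2, −0.60 ± 0.17, edgeR adjusted p = 0.0304). Spt3, a core subunit, fell (−0.73), and so did Sgf11 (−0.69) of the deubiquitinase module, while Atxn7, its anchor, rose (1.07 ± 0.32, edgeR adjusted p = 0.0391). These were 2 higher and 3 lower of 19 tested, with a median of −0.20. With scaling by library size alone Sgf29, Spt3 and Sgf11 stayed negative (−0.33, −0.45 and −0.42) and did not pass, and no related gene passed in a fit of all 14 libraries or without Osa control replicate 1.

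In GAF RNAi, SAGA partners had 3 higher and 1 lower of 19 (median 0.14). Taf10b, shared with the transcription factor TFIID, rose from 119 ± 19.4 to 204 ± 5.99 CPM (n = 3 and 3, 0.78 ± 0.13, edgeR adjusted p = 0.000944), Spt20 by 0.66 and the splicing factor subunit Sf3b5 by 0.52. Sf3b3 fell from 13.1 ± 5.29 to 5.66 ± 0.531 CPM (−1.21). It shares 57.9% of its exonic bases with lncRNA:CR45184 on the same strand, and how such reads were counted is not stated. Of 9 ATAC partners tested 1 rose and 3 fell: Chrac-14, a histone-fold protein, rose from 157 ± 20.4 to 229 ± 5.42 CPM (0.55), and Atac2, the other acetyltransferase of ATAC, fell from 47.8 ± 9.93 to 31.3 ± 3.6 CPM (−0.61 ± 0.17, edgeR adjusted p = 0.0196), with Atac1 (−0.57) and the WD-repeat gene wds (−0.42). In Osa overexpression the 1 of 9 that passed was Sgf29, which both complexes share.

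For the Tip60 complex, 2 of 14 partners rose in GAF RNAi, Gas41 (0.46), another YEATS-domain gene, and Eaf6 (0.50), and the ATPase genes pont and rept fell (−0.47 and −0.50). In Osa overexpression Brd8, a bromodomain subunit, rose (0.98 ± 0.30, edgeR adjusted p = 0.0464), the 1 of 14 to pass. Of 3 partners of the MYST enzymes Eaf6 alone passed, in GAF RNAi. Of the 6 elongation complex partners of ear, none passed in any of the 3 experiments in edgeR, with 2 in GAF RNAi, 0 in HDAC1 RNAi and 1 in Osa overexpression at an unadjusted p under 0.05, which 40.1%, 11.9% and 36.8% of all genes tested reached.

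Other enzymes of histone acetylation were tested for comparison. In GAF RNAi mof, which acetylates histone H4 on the male X, rose from 12.4 ± 1.18 to 18.3 ± 1.84 CPM (0.56) and Elp3 of Elongator fell from 25.7 ± 8.29 to 14.2 ± 2.7 CPM (−0.85), of 4 tested. Of 9 deacetylase genes HDAC11 fell in GAF RNAi (−0.63) and HDAC1 rose in Osa overexpression, from 289 and 276 CPM to 406 and 372 CPM (0.46 ± 0.13, edgeR adjusted p = 0.0366). HDAC11 shares 22.1% of its exonic bases with Nct on the other strand. Of 6 genes of acetyl-CoA supply tested in GAF RNAi, 4 fell and 0 rose (median −0.56, against 0.0022 over all genes). Over all genes tested 15.9% were called lower. The 4 were the acetyl-CoA synthase AcCoAS, from 70.6 ± 23.3 to 35 ± 4.98 CPM (−1.01 ± 0.23, edgeR adjusted p = 0.00939), the pyruvate dehydrogenase genes Pdha (−0.87) and muc (−0.54), and the citrate synthase gene kdn (−0.57). None of 6 passed in Osa overexpression in edgeR, where 2 had an unadjusted p under 0.05. Of the 19 related genes called in GAF RNAi, 5 passed in a fit of all 14 libraries, 14 with the replicate block and 6 to 19 with a library left out.

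**Figure D5:**
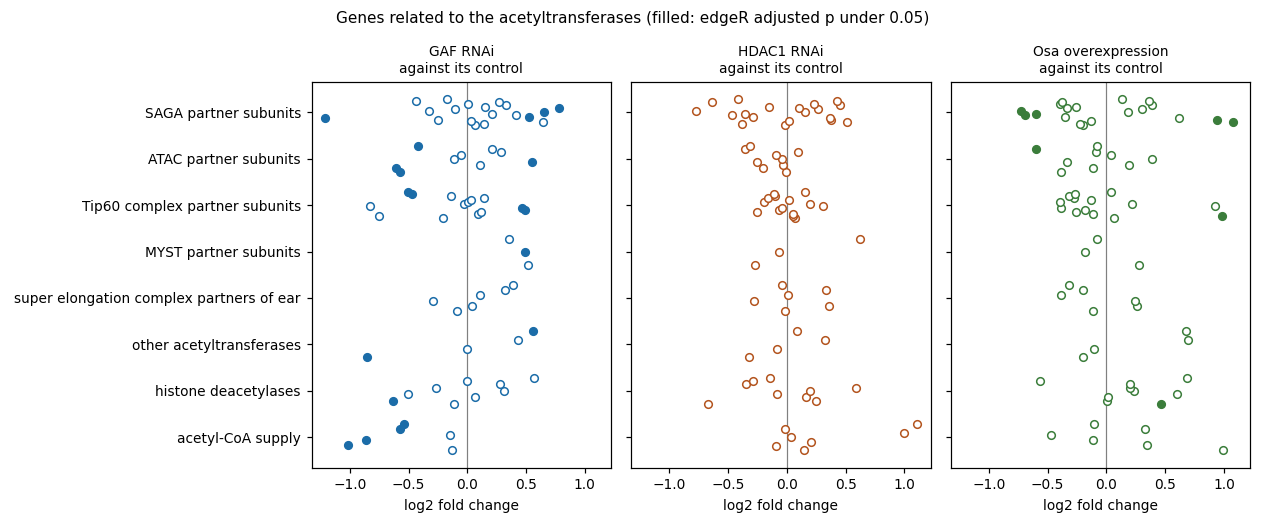
Log2 fold change (x axis) of each tested gene in 8 lists of related genes (y axis), 1 panel per experiment; filled circles passed the edgeR threshold, and a gene in 2 lists is drawn in both. The acetyl-CoA supply genes that passed in GAF RNAi lie below 0, and those of the SAGA, ATAC, Tip60 complex and other acetyltransferase lists lie on both sides.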

How the data were processed

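The table that the authors deposited holds whole-number counts per gene. The submitters' processing notes list featureCounts 2.0.3, HISAT2 2.2.1, Trim Galore 0.6.10 and SAMtools 1.6, with dm6 as the build. Annotation and the treatment of overlapping genes and read pairs are not given in the sources used. Of counts from 1 to 49, 61.5% to 70.4% were even in each library. Samples were grouped by title. Each experiment was filtered (minimum count 10, minimum total 15), scaled by TMM and fitted over all genes in R 4.3.3 with edgeR 4.0.16 (robust quasi-likelihood test); p was adjusted by Benjamini-Hochberg over all genes tested, with a threshold of 0.05. A called gene passed it. The SE of a fold change is its size over the root of the F statistic. Exonic lengths came from the BDGP6 annotation (dm6 coordinates). Of the table's 17868 names, 17161 were current symbols.

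Alternatives were each library left out, counts divided by 2, a single fit of the 14 libraries, a block for replicate number, limma-voom (limma 3.58.1), DESeq2 1.42.0, at least 5 CPM on average, no filter, library size only and RLE factors. The edgeR test was tested on simulated counts. No 2 replicates were alike within sampling noise (median chi-square per gene of at least 7.49). The members, gene lists and tests were chosen with earlier results of these data known. Named were all members, the targeted genes, and up to 4 called genes per list with the smallest p. Neighbours sharing over 20% of a member's exonic bases were added after the annotation was read.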

Additional observations from a re-analysis of the deposited data

How the results depend on the processing

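Of 369 recomputed values of single members, 295 kept their direction and side of the threshold, 24 lost and 10 gained a call, and 40 changed sign, of which those from full sets of libraries are given here and the cause was not tested. The sign of Ada3 in GAF RNAi turned with RLE (0.0051), at least 5 CPM (0.075), DESeq2 (0.0049), the replicate block (0.0025) and halved counts (0.0066). In HDAC1 RNAi, Gcn5 turned with RLE (−0.043), at least 5 CPM (−0.00019), DESeq2 (−0.044), limma-voom (−0.12), the replicate block (−0.15) and halved counts (−0.00020). Enok turned with the same 6 settings (−0.057, −0.020, −0.056, −0.034, −0.054 and −0.021), and Tip60 with library size only (0.30), no filter (0.037) and all 14 libraries (0.12). In Osa overexpression nej and enok turned with library size only (0.12 and 0.25). None of these values passed the test.

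With a library left out, fold changes ran in GAF RNAi from −0.58 to 0.0084 (Gcn5), −0.44 to 0.17 (Ada2a), −0.14 to 0.14 (Ada3) and −0.26 to 0.0066 (Tip60). In HDAC1 RNAi they ran from −0.27 to 0.63 (nej), −0.86 to 0.58 (Gcn5), −0.30 to 1.76 (Ada2a), −0.16 to 0.93 (Ada2b), −1.04 to 0.11 (Ada3), −0.31 to 0.26 (Tip60), −0.18 to 0.60 (chm) and −0.44 to 0.36 (enok). In Osa overexpression they ran from −0.41 to 0.052 (nej) and −0.27 to 0.17 (enok). The Ada2b to Ada2a difference in HDAC1 RNAi ran from −0.89 to 0.080.

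Members called with a library left out numbered 0 to 4 in GAF RNAi, 0 to 4 in HDAC1 RNAi and 0 to 5 in Osa overexpression. For the differences between experiments they numbered 0 to 1 (GAF minus Osa), 0 to 2 (GAF minus HDAC1) and 0 to 1 (HDAC1 minus Osa). Genes called in all were 1593 to 3389, 36 to 3621 and 498 to 3535. With all 14 libraries in 1 fit, members called fell to 0 in GAF RNAi and in Osa overexpression, and limma-voom called 2 in Osa overexpression. Against 2573, 10 and 1929 genes called, that fit called 1451, 345 and 354. In HDAC1 RNAi the count was 0 with library size only, 309 with no filter, 294 with DESeq2, 2 with limma-voom, 241 with the replicate block and 38 with halved counts.

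In the GAF experiment the replicate numbers were not found to pair the samples: same-numbered libraries had correlations of deviations of 0.00093, −0.087 and −0.19. Same-numbered libraries had 0.15 in the HDAC1 and 0.0083 in the Osa experiment. With 2 libraries a group, differently numbered libraries have the same value with its sign turned, so pairing there is not settled. The block raised the genes called in HDAC1 RNAi from 10 to 241. It lowered them from 2573 to 2344 in GAF RNAi and from 1929 to 1827 in Osa overexpression. With the block, 1, 0 and 3 members were called. The lowest count of a member was 73, and with 2 libraries a group the intervals were set by the scatter among libraries.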

Other observations

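The genes whose pattern was nearest to nej, Gcn5 and ear were found by the root mean square difference in log2(CPM + 1) over the 14 libraries, each taken relative to the mean of its own experiment, among 8337 genes tested in all 3 experiments. For nej they were Frl, a formin (0.0894), msn, a kinase (0.0932), and gpp, the H3K79 methyltransferase (0.114), where the median gene was 0.403 away. For Gcn5 they were dpa, a subunit of the MCM helicase (0.147), Plap (0.148) and Cbp80, of the nuclear cap-binding complex (0.152), against a median of 0.522. For ear they were nonA, an RNA-binding protein (0.088), CG17977 (0.128) and lap (0.133), against 0.439. By construction, genes that vary little lie near each other in this measure.

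Among the 9 genes themselves, the nearest pairs by the same measure were Ada2b with Tip60 (0.177) and Gcn5 with Ada3 (0.21), and the most distant pair was Ada2a with chm (0.581).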
